A study of Rattus norvegicus with 18 samples.

Results

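The genes described here encode the constitutive subunits of the proteasome in the rat. They were chosen by symbol: Psma, Psmb, Psmc or Psmd followed by a number, leaving out the inducible subunits Psmb8, Psmb9 and Psmb10. The rule gave 36 genes, 16 of the core and 20 of the cap, against 32899 genes in the count tables of both tissues. The core genes were 7 of the alpha ring, 7 of the beta ring and 2 with tissue-restricted expression elsewhere (Psma8 of testis and Psmb11 of thymus). The cap genes were 6 ATPases, 3 other base subunits, 8 lid subunits and 3 assembly chaperones (Psmd5, Psmd9 and Psmd10). All 36 had a row in the deposited TMM-scaled retina table. All but Psmb11, 35 in number, could be matched to an identifier in the count tables.

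RNA-seq was run on retina and on RPE/choroid (the retinal pigment epithelium with the vascular layer behind it) of wild-type female F344 rats, an inbred strain. Each tissue had 3 libraries from untreated young rats, which are 4 months old in the sample labels and 3 months old in the study's legends, 3 from untreated aged rats of 24 months, and 3 from aged rats of 24 months given 8-aminoguanine (8-AG). 8-AG is a purine derivative, and the treated rats took 5 mg/kg daily with the water they drank, over 8 weeks starting at 22 months. The comparisons ask which genes differ with age and which differ with treatment in the aged eye.

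The proteasome is the protease of the cytosol and nucleus that degrades proteins marked with ubiquitin. Its core is a barrel of stacked alpha and beta rings, with the active sites inside on Psmb5, Psmb6 and Psmb7, and its cap binds ubiquitin chains, unfolds the substrate with a ring of ATPases and feeds it into the barrel. Interferon induces Psmb8, Psmb9 and Psmb10, which take the place of Psmb5, Psmb6 and Psmb7 in newly built immunoproteasomes. In photoreceptors the proteasome clears misfolded and surplus visual proteins, and the transcription factor Nfe2l1 is known to raise the subunit genes together when proteasome activity is low.

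The promoters of the subunit genes are shown because these genes are known to share regulators, and those of 2 of the 3 inducible counterparts, which held the interferon motif, because the contrast with the inducible genes recurs in the results. RefSeq promoter windows, 250 bases before to 50 after the start on build GRCr8, were matched by symbol for 31 of the 36 genes. 7 motifs, chosen with results of these data known, were searched on both strands. The antioxidant response element core TGACNNNGC was in 7 of the 31 windows and in 12.1% of all 33469 promoter windows of the same length. The ETS core CGGAAG was in 18 of 31 and in 16.6% of all, the GC box GGGCGG in 22 and in 33.1%, the CCAAT box CCAAT in 16 and in 37.5%, the cyclic AMP response element TGACGTCA in 1 and in 1.83%, the nuclear respiratory factor 1 motif in 1 and in 0.852%, and the interferon-stimulated response element (GAAA, any 2 bases, GAAA) in 3 and in 3.92% of all. Core and cap windows held the ETS core in 8 of 14 and 10 of 17, and the antioxidant core in 4 of 14 and 3 of 17. In the lines below, capitals mark matches to the antioxidant, ETS and interferon motifs on either strand. Psmb4 (chr2:185134512-185134811, minus strand) is the only subunit gene called in any comparison in the main fits (edgeR with TMM scaling). Psmb5 (chr15:32047330-32047629, minus) carries the chymotrypsin-like site. Psmb8 (chr20:4656982-4657281, minus) and Psmb10 (chr19:50743243-50743542, minus) are inducible counterparts of Psmb5 and Psmb7.
Psmb4: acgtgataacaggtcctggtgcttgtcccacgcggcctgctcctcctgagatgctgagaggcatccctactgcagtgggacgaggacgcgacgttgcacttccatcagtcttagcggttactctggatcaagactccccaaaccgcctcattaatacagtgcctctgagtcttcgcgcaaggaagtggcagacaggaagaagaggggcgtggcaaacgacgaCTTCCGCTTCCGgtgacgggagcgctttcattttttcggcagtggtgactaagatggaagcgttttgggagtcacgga
Psmb5: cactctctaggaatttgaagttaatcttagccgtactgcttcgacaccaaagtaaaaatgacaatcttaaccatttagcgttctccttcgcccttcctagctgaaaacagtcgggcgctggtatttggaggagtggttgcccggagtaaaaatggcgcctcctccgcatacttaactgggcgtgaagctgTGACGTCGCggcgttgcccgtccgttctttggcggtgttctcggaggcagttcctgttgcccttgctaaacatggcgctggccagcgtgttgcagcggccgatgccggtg
Psmb8: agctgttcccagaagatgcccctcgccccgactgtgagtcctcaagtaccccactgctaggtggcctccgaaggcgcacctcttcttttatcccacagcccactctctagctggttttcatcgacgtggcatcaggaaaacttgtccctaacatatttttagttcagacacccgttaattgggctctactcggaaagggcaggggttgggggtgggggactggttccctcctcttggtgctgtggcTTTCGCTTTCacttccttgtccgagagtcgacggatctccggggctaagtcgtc
Psmb10: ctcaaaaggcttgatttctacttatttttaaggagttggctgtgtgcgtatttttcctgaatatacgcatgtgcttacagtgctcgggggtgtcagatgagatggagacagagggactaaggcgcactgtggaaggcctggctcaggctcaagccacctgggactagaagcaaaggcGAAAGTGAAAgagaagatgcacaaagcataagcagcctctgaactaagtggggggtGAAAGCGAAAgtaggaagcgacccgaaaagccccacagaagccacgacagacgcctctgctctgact
The window of Psmb4 held the ETS core at 2 adjoining places on the reverse strand, from base -28 to base -17 counted from the start, and that of Psmb5 the antioxidant core from -60 to -52. The interferon motif lay from -4 to 6 in Psmb8, and from -73 to -64 and from -17 to -8 in Psmb10. The window of Psmb9, the inducible counterpart of Psmb6, is not printed; it held no match to the interferon motif, only GC boxes and a CCAAT box among the 7 motifs. A match describes letters only and does not show that a factor binds there.

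Retina libraries held 12283458 to 15644346 counts and RPE/choroid libraries 28573828 to 48203050. In young retina the 11 rod markers summed to 56400 to 61744 CPM (read counts relative to library size after TMM scaling). In aged retina they summed to 35395 to 40229 CPM, and 9 of the 11 were called lower. Calls here are by edgeR's quasi-likelihood test at an adjusted p under 0.05, which 14.5% of all genes passed. The 6 microglia and macrophage markers summed to 30.4 to 31.3 CPM in young and 93.1 to 154 in aged retina. Of these, the 5 that could be tested were all called higher, against 7.29% of all genes. The 9 lens genes summed to 149 to 6021 CPM in young and 17.0 to 23.9 in aged libraries, where 2 of the 9 were at 0, and to 1698 CPM in 8-AG library 1. In RPE/choroid, 8-AG library 1 stood apart, with 48180 CPM of 7 muscle genes against 2246 and 48.4 in treated libraries 2 and 3. Its rod markers summed to 53381 CPM against 858 and 829, its 9 RPE markers to 5922 against 15732 and 18948, its 4 endothelial markers to 539 against 4946 and 2939, and its 5 surface epithelium markers to 1439 against 8.62 and 234. Rod markers also varied among the other RPE/choroid libraries, from 1948 to 19388 CPM in young and from 597 to 16177 in aged ones. None of the rod, RPE, muscle or endothelial markers was at 0 in a group. The part of these differences in the subunit values was not tested. Fits with the rod marker sum as a covariate in RPE/choroid, and without single libraries, are given below as alternatives. The 8-AG retina libraries are labelled total RNA and the others polyA RNA, although the protocol describes polyA capture for all. In RPE/choroid, young libraries 1 and 2 carry the same number in their labels with the letters L and R, as do aged libraries 1 and 2, and whether these are both eyes of 1 rat is not said. The labels do not say that replicates came from separate rats, so p-values measure the spread between these libraries only. In bulk tissue, fewer cells of a type and less RNA per cell cannot be told apart.

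In aged against young retina, 1 subunit gene of 34 tested was called, Psmb4 of the beta ring, which was higher in aged retina, while 14.5% of all 14588 genes tested were called at an adjusted p under 0.05 (edgeR quasi-likelihood F-test, Benjamini-Hochberg over all genes tested). Of all genes, 7.29% were called higher. At an unadjusted p under 0.05 the count was again 1 of 34, against 29.2% of all genes, and DESeq2 also called Psmb4 alone. The 95% interval of the fold change lay within 1.5-fold in either direction for 34 of 34 subunit genes and for 9558 of the 14588 genes, with no matching on level. The absolute log2 fold change was under 0.1 for 30 of the 34. Libraries were also scaled by their totals alone, an alternative chosen after seeing the data. The median log2 fold change of all genes then moved from 0.0019 to 0.12. In that fit 5 of 34 subunit genes were called, all of them higher (Psma6, Psmb3, Psmb4, Psmb5 and Psmd6). Of all 14588 genes, 2886 were called in either direction, against 2122 with TMM. At an unadjusted p under 0.05 the counts were 14 of 34 and 5122 of 14588, against 1 of 34 and 4266 with TMM. How many of all genes were called higher was not counted in that fit.

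Psmb4 (ENSRNOG00000020979) encodes a non-catalytic beta subunit, the last to join during assembly of the core. Its level was 55.6, 58.2 and 60.8 CPM in the young retina libraries and 63.7, 73.8 and 72.0 CPM in the aged ones. Every aged library was above every young one. The log2 fold change was 0.27 ± 0.07 (SE, n = 3 against 3, 95% interval 0.11 to 0.42), a rise of 20.2%, with an adjusted p of 0.0308 in edgeR's quasi-likelihood test. The call was lost in 5 of the 6 fits that left out a library, all but that without aged library 1, with edgeR adjusted p up to 0.119. It was also lost when the 8-AG libraries joined the fit (edgeR adjusted p = 0.0705), where the log2 fold change was again 0.27. In the 8-AG-treated retina Psmb4 was at 58.95, 72.3 and 73.1 CPM.

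The other beta subunits differed less. Psmb3, a non-catalytic subunit, was at 42.1, 40.8 and 43.1 CPM in young and 43.5, 52.6 and 45.6 CPM in aged retina. The groups did not overlap, but the log2 fold change of 0.17 ± 0.08 (SE) had an interval from -0.01 to 0.36 and an edgeR adjusted p of 0.196. Psmb5 was at 46.4, 43.8 and 41.3 CPM in young and 45.4, 53.2 and 48.3 CPM in aged libraries, and here the groups overlapped (log2 fold change 0.16 ± 0.08, interval -0.02 to 0.35, edgeR adjusted p = 0.222). Psmb6, which carries the caspase-like site, was at 27.97, 28.5 and 24.9 CPM in young and 22.4, 33.9 and 27.5 CPM in aged libraries. Its log2 fold change of 0.05 had an interval from -0.28 to 0.37, the widest of the beta ring. Its expected counts were not whole numbers (by more than 0.01) in any of the 9 retina libraries. Some of its reads had thus been divided among several places. Of 35 subunit genes, 9 had such counts in some library, among them Psma3, Psma8 and Psmd9 in 8 libraries. Psmc6 had them in all 9, with an interval from -0.11 to 0.17. Psmb7, which carries the trypsin-like site, was at 95.6, 95.3 and 98.4 CPM in young and 88.4, 101 and 92.1 CPM in aged libraries, a log2 fold change of -0.04 with an interval from -0.17 to 0.10. In the alpha ring, whose subunits form the gate of the barrel, 4 genes were higher and 3 lower, from Psma3 at -0.07 ± 0.06 to Psma2 at 0.10 ± 0.08. Psma3 was at 168, 178 and 195 CPM in young and 166, 174 and 176 CPM in aged libraries. The negative signs of Psma3 and Psmb7 turned to 0.05 and 0.08 with scaling by library totals, which moved all genes up.

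In the cap, 0 of 20 genes were called in aged retina by edgeR or DESeq2, with 13 above 0 and 7 below. At an unadjusted p under 0.05 the count was again 0 by either tool. Of all 14588 genes, edgeR called 2122 and DESeq2 1916, and 4266 and 3392 had an unadjusted p under 0.05. The highest was Psmc4, an ATPase, at 84.8, 75.2 and 80.6 CPM in young and 80.0, 94.8 and 82.3 CPM in aged libraries (log2 fold change 0.10 ± 0.08, interval -0.07 to 0.27). The lowest was Psmd11, a lid scaffold subunit, at 115, 118 and 117 CPM in young and 106, 102 and 114 CPM in aged libraries. All 3 aged libraries lay below all 3 young ones, with a log2 fold change of -0.12 ± 0.06, an interval from -0.25 to 0.01 and an edgeR adjusted p of 0.199. Psmb3, Psmb4 and Psmd11 were the 3 of 34 subunit genes without overlap between the groups, against 35.0% of all genes. The 3 non-ATPase base subunits, the scaffolds Psmd1 and Psmd2 and the ubiquitin receptor Psmd4, had log2 fold changes of -0.08, -0.02 and -0.04. The 8 lid genes, among them the deubiquitinase Psmd14, had a median of 0.04 and the 3 chaperones one of 0.0056.

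**Figure D1:**
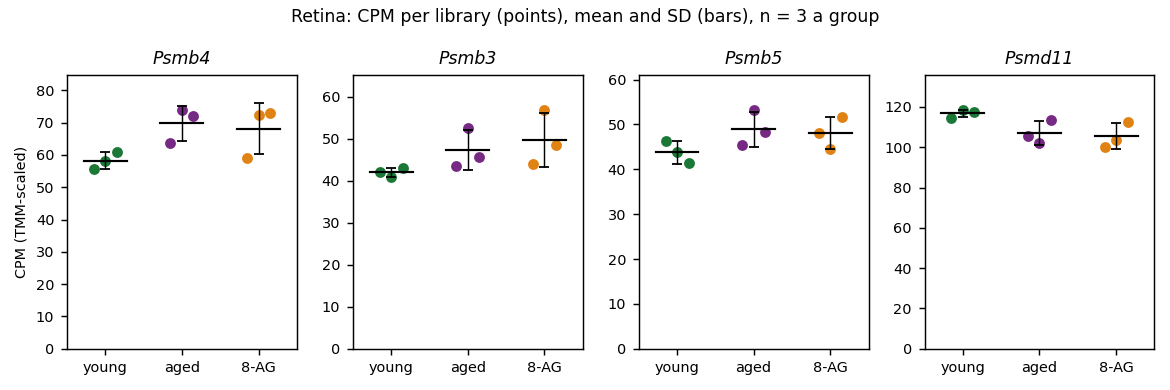
CPM of 4 subunit genes in each retina library (points; y axis in TMM-scaled CPM from 0), with the mean and SD of 3 libraries a group. The 3 aged values of Psmb4, 63.7 to 73.8 CPM, sit above the 3 young ones, those of Psmd11 sit below, and the groups of Psmb5 overlap.

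In 8-AG-treated against aged retina, 0 of 34 subunit genes were called by edgeR, and 0 of 34 by DESeq2, against 0.0205% of 14631 genes by edgeR. At an unadjusted p under 0.05 the count was also 0 of 34 by either tool, against 3.67% of all genes by edgeR. Without 8-AG library 1 it was 2 of 34 (Psma1 and Psmd5), beside 990 of 14924 genes. Without aged library 2 it was 1 of 34 (Psmd8), beside 895 of 14727 genes, and 0 subunit genes were called in either fit. With all 6 libraries the log2 fold changes ran from -0.14 to 0.17. There 33 of 34 intervals lay within 1.5-fold, against 10607 of the 14631 genes. The exception was Psmb6, at 18.3, 23.2 and 34.5 CPM in the treated libraries, which spanned the whole aged range of 22.4 to 33.9 CPM (log2 fold change -0.14 ± 0.25, interval -0.75 to 0.47). Psma1 was the highest of the core at 63.6, 76.3 and 77.7 CPM in treated against 60.9, 73.4 and 64.4 CPM in aged libraries (0.13 ± 0.10). Psmd5, a base assembly chaperone, was the highest of the cap at 39.3, 49.2 and 51.9 CPM against 35.2, 46.1 and 43.6 CPM (0.17 ± 0.13). In each of these genes the groups overlapped. The lowest cap gene was the ATPase Psmc3, at 105, 89.5 and 97.5 CPM against 91.4, 109 and 100 CPM (-0.04 ± 0.09). Psmb5 and Psmb7 had log2 fold changes of -0.03 and -0.07, with intervals from -0.23 to 0.17 and from -0.26 to 0.11. Psmd1 was the 1 of 34 without overlap between the groups, at 199, 206 and 208 CPM in treated and 194, 198 and 193 CPM in aged libraries, against 8.64% of all genes.

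In aged against young RPE/choroid, 0 of 34 subunit genes were called by edgeR and 0 by DESeq2, and 0 of all 16047 genes were called by edgeR (0%). At an unadjusted p under 0.05 the count was 0 of 34 by either tool, against 2.13% of all genes by edgeR, and 0 of 34 did not overlap, against 7.19% of all genes. 33 of 34 intervals lay within 1.5-fold, against 4610 of the 16047 genes. The highest was Psmb5, at 138, 167 and 156 CPM in young and 157, 203 and 185 CPM in aged libraries, with a log2 fold change of 0.24 ± 0.15 and an interval from -0.12 to 0.60. The lowest was Psmb7, at 48.6, 49.6 and 47.9 CPM in young and 44.2, 50.6 and 42.6 CPM in aged libraries (-0.09 ± 0.12, interval -0.37 to 0.19). The groups overlapped in both. Psmb6 had a log2 fold change of 0.12 with an interval from -0.18 to 0.42, and Psmb4, called in aged retina, one of 0.03 with an interval from -0.34 to 0.40. Cap genes ran from Psmd3, a lid subunit, at -0.08 ± 0.11 to Psmc4 at 0.09 ± 0.11. Psmd3 was at 128, 132 and 131 CPM in young and 114, 119 and 138 CPM in aged libraries, and Psmc4 at 192, 195 and 198 CPM in young and 190.5, 206 and 226 CPM in aged ones, so the aged values surrounded the young ones in each.

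**Figure D2:**
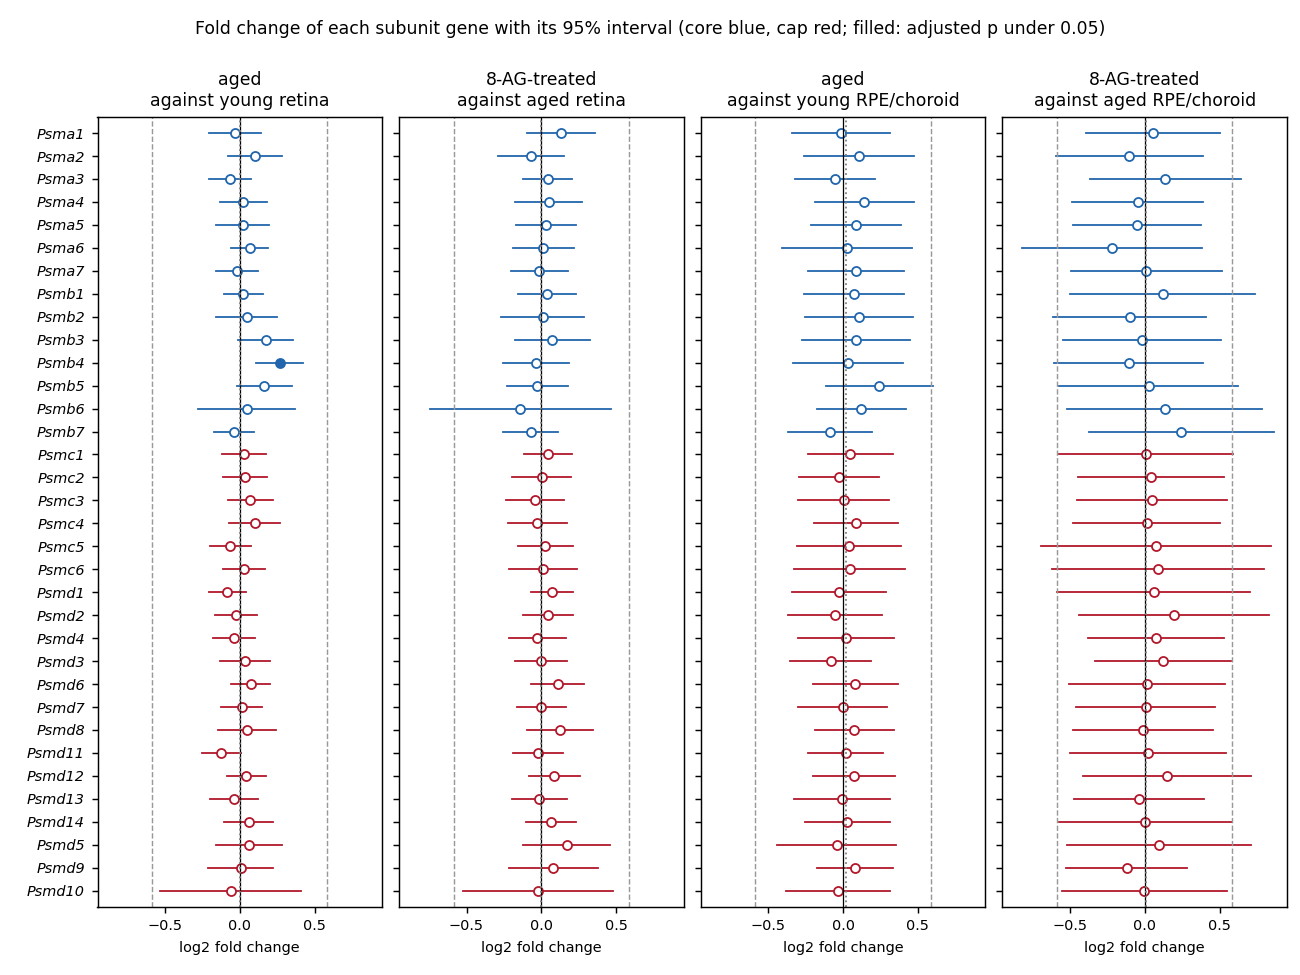
Log2 fold change (x axis) of 34 subunit genes in the 4 comparisons, with 95% intervals; core genes blue, cap genes red, filled where the adjusted p was under 0.05, solid line at 0, dotted line at the median of all genes and dashed lines at 1.5-fold. Psmb4 in aged against young retina is the only filled point, and intervals widen in RPE/choroid, above all with 8-AG; Psma8 is not drawn.

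In 8-AG-treated against aged RPE/choroid, 0 of 35 subunit genes were called by edgeR and 0 by DESeq2, as were 0 of 16257 genes by edgeR (0%). 0 of 35 had an unadjusted p under 0.05 by either tool, against 1.69% of all genes by edgeR. The intervals were the widest of the 4 comparisons, and 18 of 35 lay within 1.5-fold, against 1538 of the 16257 genes. Without 8-AG library 1, described above, 26 of 35 did, against 2409 of 16553 genes, and again 0 were called. That library held the highest of the 9 RPE/choroid values of 12 of 20 cap and 5 of 14 core genes, and the lowest of 3 and 3. Without it, 12 subunit genes were above 0 and 23 below, against 24 and 11 with it.

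All 3 catalytic subunits were highest in that library. Psmb5 was at 216, 154 and 174 CPM in treated libraries 1 to 3 and 157, 203 and 185 CPM in aged ones. Psmb6 was at 398, 264 and 321 CPM against 282, 312 and 321 CPM, and Psmb7 at 68.6, 43.2 and 47.2 CPM against 44.2, 50.6 and 42.6 CPM. No aged value reached that of treated library 1. The log2 fold changes of 0.03 ± 0.24, 0.13 ± 0.26 and 0.24 ± 0.25 turned to -0.16 ± 0.18, -0.07 ± 0.18 and -0.02 ± 0.15 without it. In the same library Psmb8, Psmb9 and Psmb10 were at 33.2, 39.4 and 46.2 CPM, each the lowest of the 9 libraries, against 66.1 to 121, 140 to 248.2 and 105 to 172 CPM in the others. The microglia and macrophage markers of that library were also the lowest of the 9, at 293 CPM against 719.8 to 1332, and its 8 interferon-response genes the highest, at 1079 CPM against 472 to 1023. Their part in the levels of the inducible genes was not tested.

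Psmb7 was the highest of the core with 8-AG in RPE/choroid, and Psma6, an alpha subunit, the lowest, at 261, 275 and 268 CPM in treated and 281, 394 and 277 CPM in aged libraries. All treated values of Psma6 lay below all aged values, 1 of 35 subunit genes against 3.99% of all genes. Its log2 fold change was -0.22 ± 0.24 (interval -0.82 to 0.38), -0.23 without treated library 1 and -0.03 without aged library 2, which holds the value of 394 CPM. The highest of the cap was the scaffold Psmd2, at 438, 320.5 and 346 CPM against 315, 304 and 365 CPM (0.20 ± 0.26, and 0.01 without treated library 1). The lowest was the chaperone Psmd9, at 44.7, 57.3 and 58.2 CPM against 57.4, 61.4 and 57.9 CPM (-0.12 ± 0.16, and -0.03 without treated library 1).

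**Figure D3:**
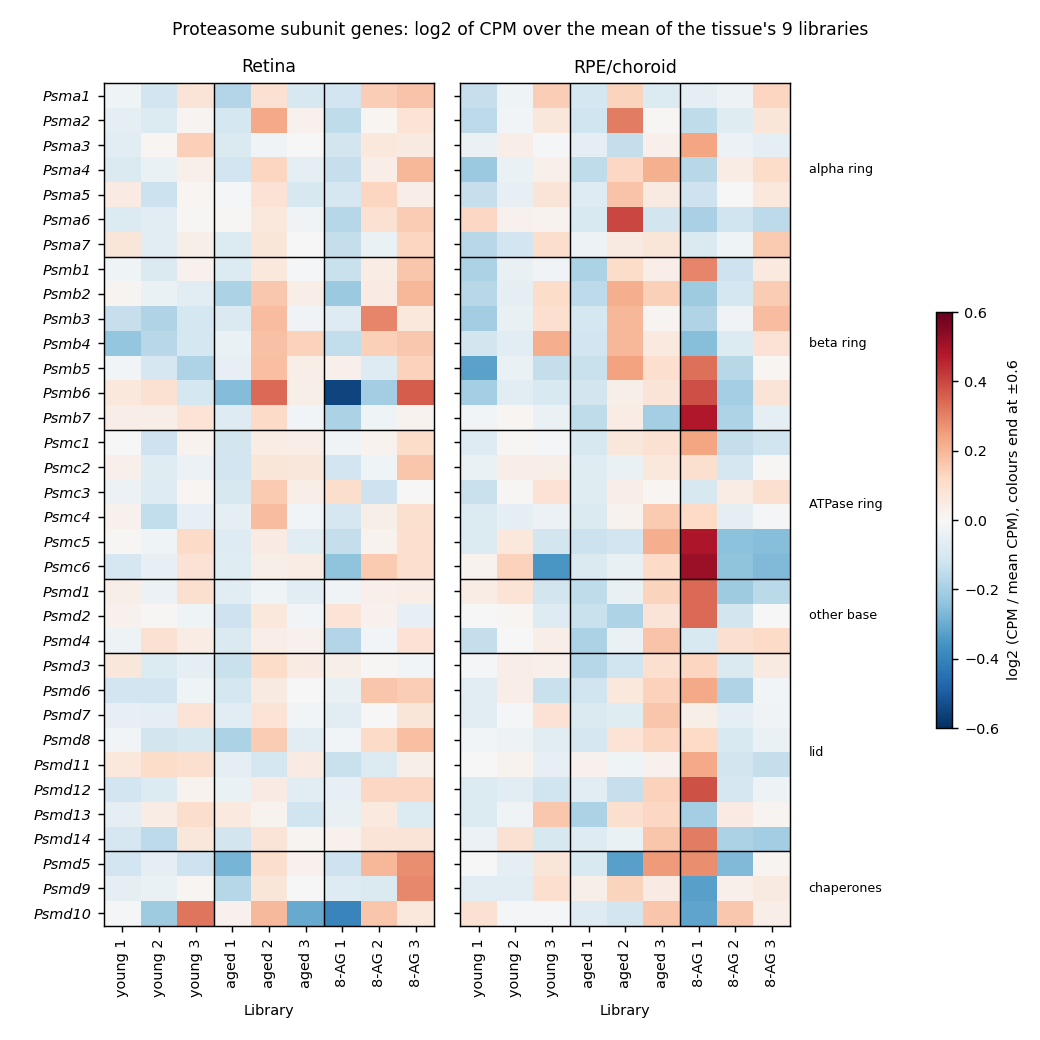
Log2 of CPM over the mean of the tissue's 9 libraries for 34 subunit genes (rows, ordered by role) in each library (columns); red is above and blue below the mean, and colours end at ±0.6. In retina, 8-AG library 3 is above the mean for 14 of 14 core genes and library 1 for 1 of 14; in RPE/choroid, 8-AG library 1 holds the highest value of 12 of 20 cap genes and 5 of 14 core genes.

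The libraries of a group differed across many subunit genes at once. In aged retina, library 1 was above the 9-library mean in 1 of 14 core and 2 of 20 cap genes and library 2 in 13 of 14 and 18 of 20. In 8-AG-treated retina, library 1 was above it in 1 of 14 core and 4 of 20 cap genes and library 3 in 14 of 14 and 17 of 20. The within-group SD of log2 CPM had a median of 0.10 over 34 subunit genes and 0.15 over all genes in retina. In RPE/choroid it was 0.16 over 35 subunit genes and 0.50 over all genes. Genes were not matched on level, and the RPE/choroid values include 8-AG library 1. Psmb6 had the largest SD in retina, 0.32, and Psmd1 the smallest, 0.045.

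The median log2 fold changes of the core and of the cap are given as descriptions, with no test between them. In aged against young retina they were 0.04 and 0.03, beside 0.0019 over all genes, with 10 of 14 core and 13 of 20 cap genes above 0. With 8-AG in retina they were 0.0098 and 0.019, beside -0.0031 over all genes. In aged against young RPE/choroid the core median was 0.09 and the cap median 0.02, beside 0.02 over all genes, with 11 of 14 core and 12 of 20 cap genes above 0. Core minus cap was 0.068 there, and ran from -0.028 without aged library 2 to 0.13 without aged library 3. That core median was 0.0028 without aged library 2, and 0.04 when libraries sharing a label number were summed and when the rod marker sum entered the fit. With 8-AG in RPE/choroid the medians were 0.010 and 0.03, beside 0.011, with 8 of 15 core and 16 of 20 cap genes above 0, and without treated library 1 they were -0.03 and -0.06, with 6 of 15 and 6 of 20 above 0. Core minus cap was -0.024 with all libraries, and ran from -0.14 without treated library 3 to 0.043 without aged library 2.

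Summed over their genes, the core and cap levels were compared next. The core sum over the cap sum, read only between libraries of 1 tissue because gene lengths were not used, was 0.551, 0.557 and 0.559 in young, 0.563, 0.580 and 0.561 in aged and 0.526, 0.568 and 0.581 in 8-AG-treated retina. All 3 aged retina values were above the young ones (means 0.556 ± 0.00409 and 0.568 ± 0.0106, SD), the nearest being 0.561 and 0.559. The treated values surrounded both groups. The alpha ring summed to 631 ± 27.2 CPM (SD) in young and 630 ± 35.5 in aged retina. The beta ring, which holds Psmb4, summed to 421 ± 5.15 and 444 ± 36.1. The part of Psmb4 in the ratio was not tested. In RPE/choroid the ratio was 0.787, 0.803 and 0.876 in young, 0.830, 0.956 and 0.790 in aged and 0.753, 0.842 and 0.9003 in treated libraries, and the groups overlapped. The core sum itself was 1052 ± 31.1, 1074 ± 71.7 and 1082 ± 101 CPM (SD, n = 3) in young, aged and treated retina, and 2690 ± 164, 2833 ± 264 and 2785 ± 154 CPM in RPE/choroid.

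**Figure D4:**
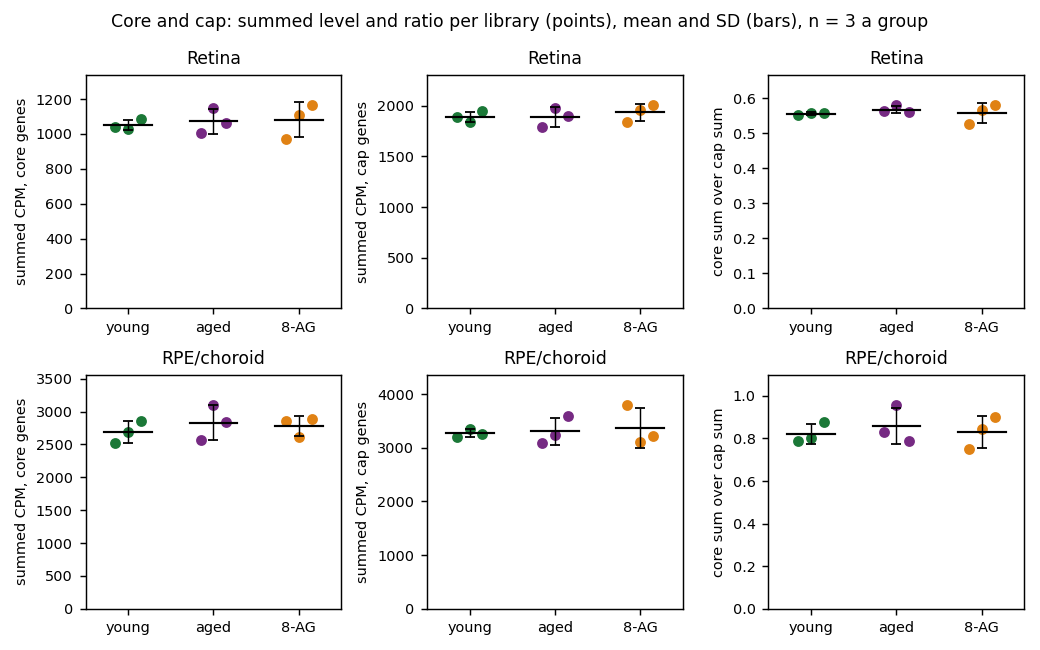
Summed CPM of 15 core and of 20 cap genes, and the ratio of the sums, in each library (points; y axes from 0), with mean and SD of 3 libraries a group. Group means differ by less than the spread of the treated libraries in each panel of retina, and the RPE/choroid groups overlap in every panel.

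The aging and the 8-AG changes were compared between the tissues with an interaction term in edgeR's quasi-likelihood test. Of the subunit genes, 0 of 35 differed in the aging change (lowest adjusted p = 0.874) while 27 of 16792 genes did. At an unadjusted p under 0.05 the counts were 0 of 35 and 1386 of 16792. The difference, RPE/choroid minus retina, ran from -0.24 ± 0.17 (SE) for Psmb4 to 0.43 ± 1.49 for Psma8. For the 8-AG change, 0 of 34 and 0 of 16915 genes differed by edgeR, with 0 and 413 at an unadjusted p under 0.05, and the difference ran from -0.24 ± 0.23 for Psma6 to 0.30 ± 0.25 for Psmb7. The comparisons with age and with treatment share the aged libraries in each tissue.

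The tissue-restricted core genes were near 0. Psma8 had 0 to 7 counts in a retina library, at most 0.525 CPM, and 0 to 21 counts in an RPE/choroid library, at most 0.473 CPM. Of the 4 comparisons within a tissue, each fitted on its own 6 libraries, it passed the filter on low counts in 8-AG-treated against aged RPE/choroid alone, with a log2 fold change of 0.24 ± 1.25 (SE; 0.80 ± 0.77 without treated library 1, which had 0 counts). Psmb11 could not be matched to a single identifier in the count tables, where none carried its name and 4 had matching values. The deposited TMM-scaled values of retina listed it at 0.0751 in young library 2, 0.0769 and 0.0668 in 8-AG libraries 1 and 3, and 0 in the other 6.

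Among other genes of the pathway, those called in aged against young retina belonged to the immunoproteasome and its activator. Psmb8, Psmb9 and Psmb10 were called higher, 3 of 3, against 7.29% of all genes. Over the 5 lists of other pathway genes, edgeR called 5 of 27, against 14.5% of all genes in either direction. Psmb8 went from 0.771, 1.501 and 1.36 CPM in young to 5.05, 6.83 and 3.53 CPM in aged libraries, a log2 fold change of 2.08 ± 0.32 (edgeR adjusted p = 0.00268), and the groups did not overlap. Psmb9 rose by 2.12 ± 0.30 and Psmb10 by 0.79 ± 0.16 on the log2 scale (edgeR adjusted p = 0.00177 and 0.00926). Of the 5 activator and inhibitor genes, Psme1 and Psme2, which encode the interferon-inducible activator cap, rose by 0.87 ± 0.09 and 0.53 ± 0.09 (edgeR adjusted p = 0.000383 and 0.00325). Psme3, Psme4 and Psmf1 did not pass, with log2 fold changes of -0.04, -0.17 and 0.11. The 8 interferon-response genes of a marker list summed to 47.8 to 52.5 CPM in young and 164 to 248.5 CPM in aged retina. Of these, 8 of 8 were called higher. The part of the microglia and interferon lists in these rises was not tested.

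The rest of the pathway gave no call by edgeR. In aged retina 0 of 5 core assembly factors, 0 of 4 other cap genes and 0 of 10 genes of the ubiquitin system were called. In each list 1 gene had an unadjusted p under 0.05 (Psmg3, Uchl5 and Nfe2l2). Of all genes, 14.5% were called and 29.2% had an unadjusted p under 0.05. The ubiquitin list included Nfe2l1, the regulator named above (log2 fold change 0.07 ± 0.06), and Nfe2l2, which responds to oxidative stress (0.48 ± 0.14, edgeR adjusted p = 0.0513), and DESeq2 called Nfe2l2. In the other 3 comparisons 0 of the 27 genes of these 5 lists were called by edgeR or DESeq2, and 0 had an unadjusted p under 0.05 by either tool. With 8-AG in retina, Psmb8, Psmb9 and Psmb10 had log2 fold changes of -0.41 ± 0.25, -0.38 ± 0.23 and -0.28 ± 0.20 (95% intervals -0.98 to 0.16, -0.90 to 0.15 and -0.73 to 0.17). In RPE/choroid the 3 genes summed to 311 to 537 CPM in young, 376 to 513 in aged and 119 to 504 in treated libraries.

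**Figure D5:**
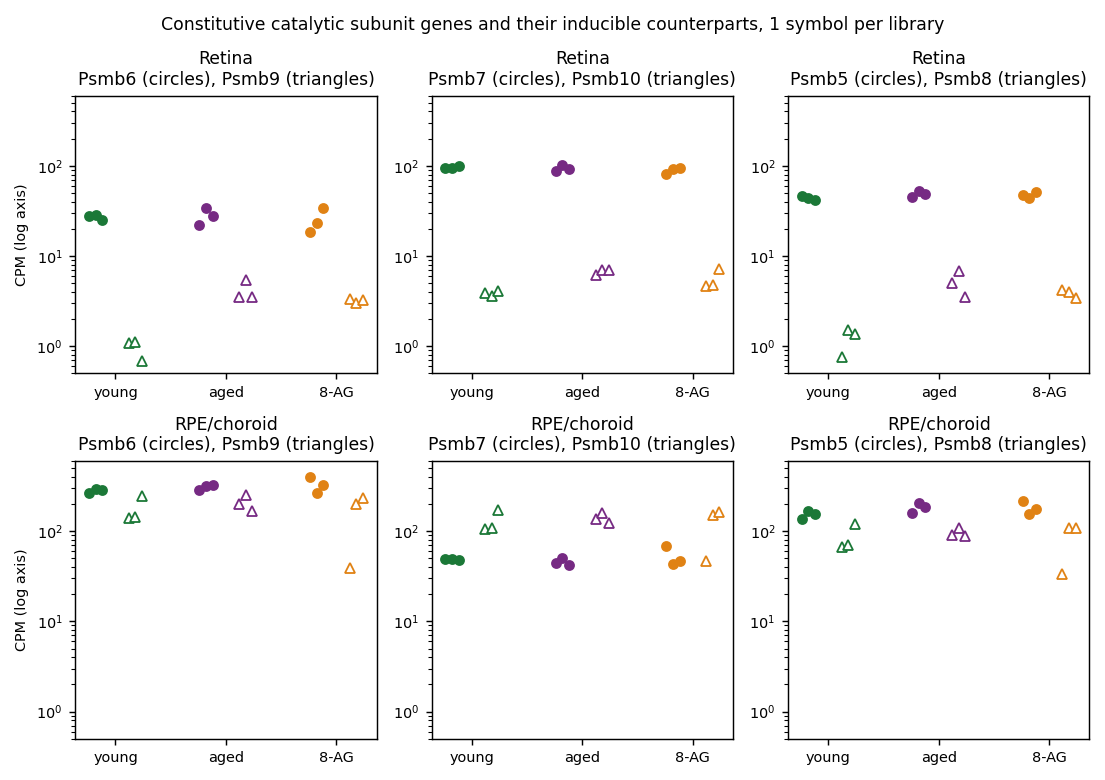
CPM (log axis) of the constitutive catalytic subunit genes (circles) and their inducible counterparts (triangles), 1 symbol per library, in retina (top) and RPE/choroid (bottom). In retina Psmb8, at 0.771 to 1.501 CPM in young libraries, reaches 3.53 to 6.83 CPM in aged ones while the groups of Psmb5 overlap; in RPE/choroid the low treated symbols belong to library 1, and levels are not to be compared between genes.

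Levels in the tissues can be set side by side only with care, since the tables were made by different library and counting methods and scaled separately. In young libraries 31 of 34 subunit genes had a higher CPM in RPE/choroid than in retina, with a median ratio of 2.06, 2.92 over 14 core and 1.79 over 20 cap genes. Psmb6 was at 27.1 ± 1.9 CPM (SD, n = 3) in retina and 280 ± 14.2 in RPE/choroid. Psmb7, Psmc6 and Psma4 were the 3 with a higher CPM in retina, Psmb7 at 96.5 ± 1.7 against 48.7 ± 0.84. Tissue and method cannot be told apart here.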

How the data were processed

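RNA-seq of 18 libraries, 3 in each of 6 groups, was analysed from the deposited tables. The submitters' processing notes name Bowtie2 2.1.0, RSEM 1.2.15, edgeR and build Rnor_6.0. For retina the authors deposited RSEM expected counts, of which 11.5% were not whole, and these were rounded. For RPE/choroid they deposited whole-number counts per gene, from libraries made with polyA selection and enrichment for full-length transcripts because the RNA yield was low. The deposited TMM-scaled CPM signal of retina were used only for Psmb11 and to check the pairing of symbols and identifiers, and the authors' comparison tables only for their identifier and name columns; their fold changes and p-values were not used. The deposited normalized counts of RPE/choroid were not used.

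Each comparison was tested on its 6 libraries in edgeR 4.0.16 under R 4.3.3 (filterByExpr, TMM, quasi-likelihood F-test with robust=TRUE), with Benjamini-Hochberg adjustment over all genes tested and a threshold of 0.05. Standard errors were the log2 fold change over the root of F, and 95% intervals used the moderated degrees of freedom. Levels are CPM with TMM factors over the 9 libraries of a tissue. The difference between tissues was an interaction over 12 libraries. Scripts were tested on simulated data. DESeq2 1.42.0, other filters, scalings and fits, and the omission of each library were alternatives. Named genes are those called, the highest and lowest of core and cap, the catalytic and tissue-restricted subunits and, of other pathway genes, the inducible subunits and those called. Other genes named beside a count (Psmb3, Psmd1, Psma2 and the members of short lists) were chosen after their values were seen. Members, lists and motifs were chosen with earlier results of these data known. No 2 libraries of the same group agreed within sampling noise.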

Additional observations from a re-analysis of the deposited data

How the results depend on the processing

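In aged against young retina, the number of subunit genes called was 1, higher in aged retina. It was 0 with all 3 groups in one fit and 0 to 1 when single libraries were left out. With library totals in place of TMM it was 5, all higher. Of all 14588 genes, 2886 were called there in either direction, against 2122 with TMM. With library totals, chosen after seeing the data, the core and cap medians were 0.15 and 0.14, where all genes moved to 0.12. The log2 fold change of Psmb4 kept its sign, at 0.23 to 0.32 without single libraries and 0.26 to 0.38 in the other alternatives. Over all 15 alternatives its adjusted p ran from 0.00579 to 0.119 and passed the threshold in 9. These p-values came from edgeR's quasi-likelihood test and, for the DESeq2 alternative, its Wald test. Genes whose values changed sign were not called in either direction, and the cause was not tested. With library totals these were Psma3 (0.049) and Psmb7 (0.078) in aged retina and Psmb5 (-0.083) with 8-AG in RPE/choroid. With 8-AG the core and cap medians also turned negative with library totals, to -0.036 and -0.027 in retina, where the median of all genes was -0.047, and to -0.084 and -0.075 in RPE/choroid, where it was -0.089. In treated RPE/choroid the core median, 0.010, was also negative with the rod marker sum as covariate (-0.037), the replicate block (-0.018), all 3 groups in one fit (-0.0094) and a minimum of 10 counts in every library (-0.0013), with 0 subunit genes called under each. Without single libraries, Psmb6 ran from -0.12 to 0.18 in aged retina and from -0.43 to 0.045 with 8-AG in retina, where Psmc3 ran from -0.10 to 0.025 and Psmb5 from -0.077 to 0.039. With 8-AG in RPE/choroid, Psmb5 ran from -0.16 to 0.13, Psmb6 from -0.068 to 0.27 and Psmb7 from -0.025 to 0.37. The core medians ran from -0.03 to 0.07 in aged and from -0.06 to 0.09 in 8-AG-treated retina, and from 0.0028 to 0.14 in aged and -0.11 to 0.06 in treated RPE/choroid. The cap medians ran from -0.02 to 0.06 and -0.0053 to 0.08 in retina, and from -0.05 to 0.07 and -0.06 to 0.09 in RPE/choroid, in the same order. Over all genes, edgeR called 3, 0 and 0 in the last 3 comparisons and DESeq2 18, 34 and 41, while the subunit genes called by DESeq2 were again 0; in treated retina edgeR called 10 without the filter and 0 with a minimum of 10 counts in every library or without robust fitting, and in aged RPE/choroid 1 with the rod marker sum as covariate.

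Between aged and young groups, correlations of same-numbered deviations ran from -0.102 to 0.116 in retina and from -0.623 to 0.269 in RPE/choroid. In neither tissue did every aged library correlate best with the young library of its own replicate number. With the replicate number as a block, 1, 0, 0 and 0 subunit genes were called in the 4 comparisons and 0 in the tissue interactions, and 1698 genes in all in aged retina. With 8-AG the correlations were 0.0542 to 0.107 in retina and -0.2 to 0.702 in RPE/choroid. In retina each treated library correlated best with the aged library of its own number, and in RPE/choroid not all did.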
